A study of Mus musculus with 9 samples.

Results

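The fibroblast growth factor (FGF) genes followed here are the ligand genes Fgf8 and Fgf10, the receptor genes Fgfr1 and Fgfr2, the feedback inhibitor genes Dusp6, Spry1, Spry2 and Spry4, and the ETS factor genes Etv4 and Etv5. They were taken by symbol from the deposited counts, and all 10 were found among 48397 symbols. Each was compared between cardiac outflow tracts of C57BL/6J mouse embryos at embryonic day 12.5 that were homozygous for the enhancer deletion (genotype Nkx2-5delta-enh/delta-enh, labelled HO, 5 libraries) and those of wild-type littermates (Nkx2-5+/+, labelled WT, 4 libraries). The deleted element is the enhancer of the cardiac transcription factor gene Nkx2-5 that acts in the anterior second heart field, and the tissue is the whole dissected arterial pole of the heart. The sources used here state no other allele, and not whether a library is 1 embryo.

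The second heart field is a pool of progenitors in pharyngeal mesoderm that adds cells to the arterial pole while the heart tube grows. FGF ligands of these progenitors bind receptor tyrosine kinases on the cell surface and switch on the RAS and ERK cascade. ERK signalling drives transcription of the ETS factor genes and of its own inhibitors, the Sprouty genes and the ERK phosphatase gene Dusp6, so these genes are widely used as readouts of FGF signalling. Fgf10 marks mouse second heart field progenitors and is normally switched off as they become heart muscle. Published work in the mouse describes Nkx2-5 as one of the factors that keep Fgf10 low in myocardium.

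The 2 genes with the smallest p among the 10 were Fgf10 and Dusp6, and their promoters are shown as the sequence around the starts of the transcripts described next. Both come from RefSeq on build GRCm38.p6 and run from 250 bases before to 50 bases after the annotated start, on the plus strand, at chr13:118714449-118714748 for Fgf10 and chr10:99262981-99263280 for Dusp6. Capitals mark matches to the motifs named below.
Fgf10: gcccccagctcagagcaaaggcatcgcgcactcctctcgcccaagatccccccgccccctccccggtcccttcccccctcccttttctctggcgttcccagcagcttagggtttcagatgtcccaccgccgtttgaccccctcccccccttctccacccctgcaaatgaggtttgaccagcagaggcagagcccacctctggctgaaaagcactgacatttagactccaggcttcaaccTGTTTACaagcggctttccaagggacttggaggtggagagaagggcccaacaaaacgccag
Dusp6: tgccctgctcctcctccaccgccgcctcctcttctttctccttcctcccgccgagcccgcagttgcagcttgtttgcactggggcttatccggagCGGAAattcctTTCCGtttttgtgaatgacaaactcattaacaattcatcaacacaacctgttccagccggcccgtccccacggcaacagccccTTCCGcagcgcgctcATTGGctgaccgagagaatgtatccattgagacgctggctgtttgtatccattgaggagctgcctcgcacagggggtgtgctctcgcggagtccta

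Both strands of these windows were searched for 6 motifs, of which the forkhead and CCAAT motifs were added after the sequences had been seen. The Dusp6 window held 3 matches to CGGAA, the short form of the ETS factor motif, which 29.9% of the 32851 promoters in the table hold, and none to the longer form CCGGAA, which contains it and which 14.9% hold. It also held 1 CCAAT box (37.4% of promoters). Among the other windows searched, that of Spry2 held the longer form CCGGAA. The Fgf10 window held 1 match to the forkhead motif TGTTTAC, found in 3.65% of promoters, and 1 Etv5 window held it too. Neither window held the NK2 homeodomain motif TNAAGTG (11.5% of promoters) or the T-box motif GGTGTNA (10.2%). Promoters of Spry1, Spry2, Etv5 and Fgfr2 were also in the table, and those of Fgf8, Fgfr1, Spry4 and Etv4 were not used here.

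Libraries held 27707400 to 49094200 reads assigned to genes. The deposited library names carry a number that sorts them into a set A (HO 1, HO 2, WT 1 and WT 2) and a set B (HO 3, HO 4, WT 3 and WT 4), with HO 5 under a number of its own. The labels do not say what the number stands for, but the first principal component (30.5% of the variance) put all 4 libraries of set A on one side and the other 5 on the other. Genotype differences are therefore also given within set A and within set B. HO 2 stands apart, with neuron and Schwann cell markers summing to 2960 CPM (read counts per 1e6 reads of a library size scaled by TMM, a correction for composition) and to no more than 139 CPM in any other library. Heart muscle markers were high in all libraries (8 of 8 above 1 CPM everywhere), and so were 6 of 7 outflow tract myocardium markers, with Tdgf1 at no more than 0.445 CPM.

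Nkx2-5, the gene whose enhancer was deleted, had 16.5, 24.4, 17.8, 11.4 and 17.4 CPM in HO 1 to HO 5, against 18.8, 42.0, 45.0 and 39.5 CPM in WT 1 to WT 4. WT 1 lay inside the HO range. The log2 fold change of Nkx2-5 was -1.05 (SE 0.26). In edgeR its unadjusted p was 0.00225, which ranked 38 among all genes tested, and its adjusted p was 0.896. The DESeq2 adjusted p was 0.0580, and a two-sided exact permutation over all labellings of the libraries gave a p of 0.0238.

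The question put to the FGF genes was whether ligands, receptors and feedback targets differed between HO and WT outflow tracts. At a Benjamini-Hochberg adjusted p under 0.05 over all 16522 genes tested, the quasi-likelihood test of edgeR called 0 genes (0% of those tested) and so 0 of the 10. DESeq2 called 38 of the 18944 genes it adjusted over (0.201%) and 0 of the 10, with Fgf10 nearest its threshold. With sample quality weights, limma-voom called 4 of the 16522 genes (0.0242%) and 0 of the 10. At an unadjusted edgeR p under 0.05, 2 of the 10 were past the threshold, Fgf10 and Dusp6, both higher in HO, where 5.27% of all genes were past it, 2.32% higher and 2.94% lower. At an unadjusted DESeq2 p under 0.05, Fgfr2 joined them, which made 3 of the 10, where 4.74% of 27633 genes were past it. Fgfr2 joined them in edgeR too when the replicate number was a block (unadjusted p = 0.0479), without HO 2 (0.0484) and without WT 4 (0.0268). It also did so with set as a term and HO 5 read as set B (0.0392). Each of these fits made 3 of the 10. Without WT 3 both Fgfr2 (0.0333) and Etv5 (0.0483) joined. Within set A, Fgfr2 alone was past the threshold (0.0188). The share of all genes past it is not given here for these fits. Of the 10 genes, 8 had a log2 fold change above 0, against 50.6% of all genes tested, and their median was 0.35, against 0.0029 over all genes. All 10 passed the filter on low counts, Fgf8 narrowly.

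**Figure D1:**
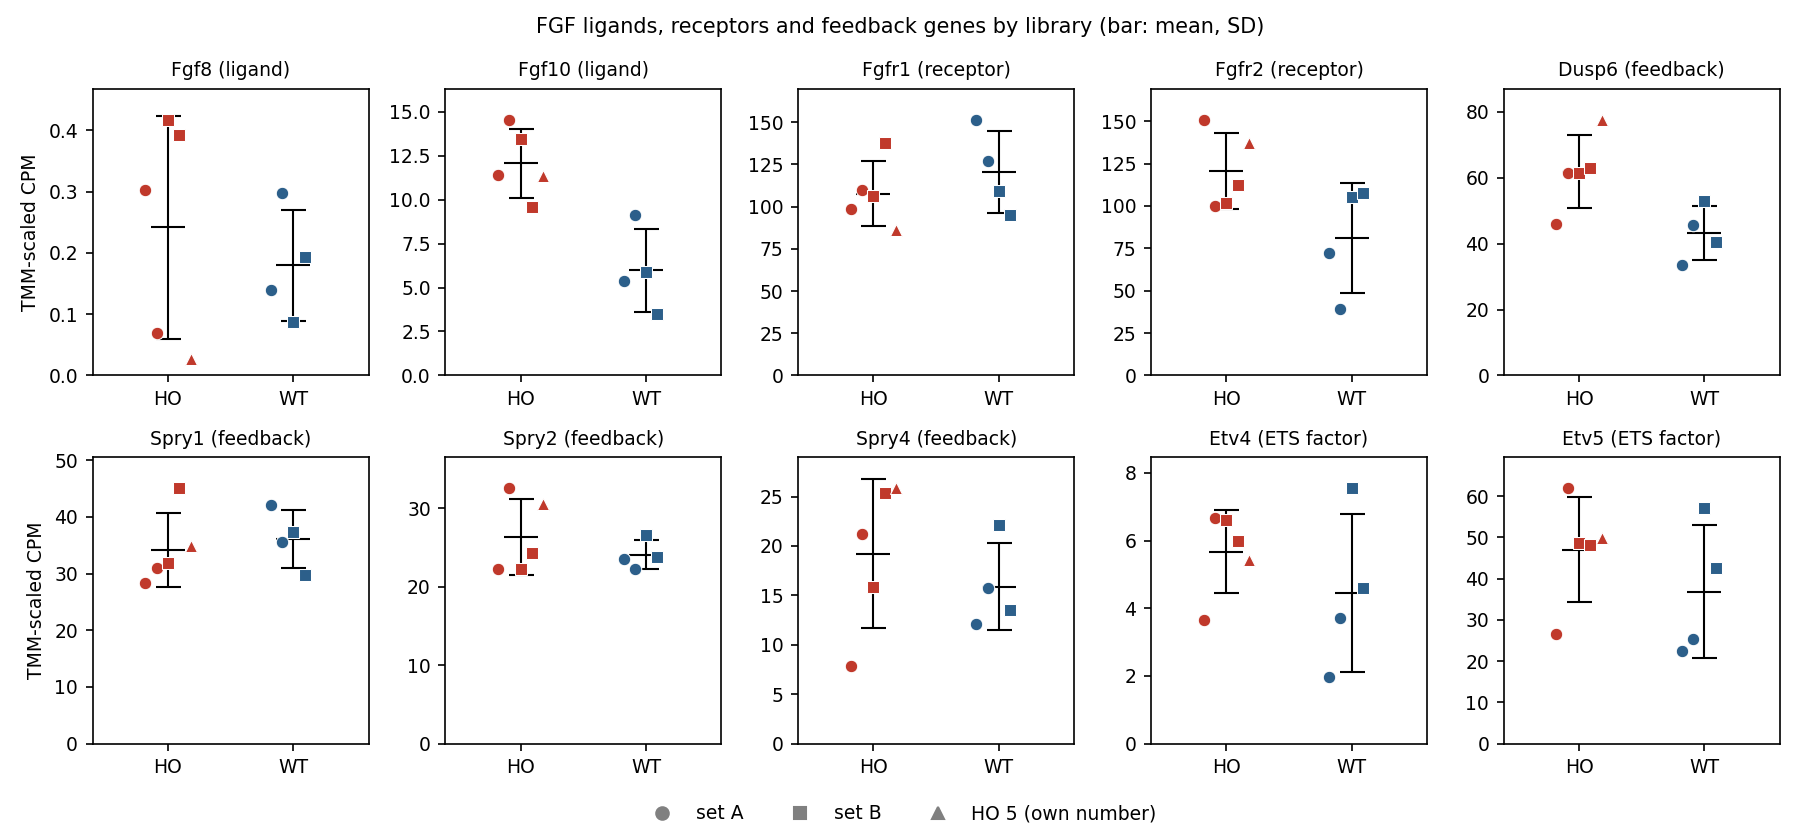
Level of each FGF gene in every library (TMM-scaled CPM), HO left and WT right, with the mean and SD as bars and the set as the symbol shape. Every HO library lies above every WT library for Fgf10 (lowest HO 9.59 CPM, highest WT 9.11 CPM), while the ranges overlap for the other 9 genes.

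Among the ligand genes, Fgf10 was about 2-fold higher in HO. Its level was 11.4, 14.6, 13.4, 9.59 and 11.3 CPM in HO 1 to HO 5, against 5.40, 9.11, 5.90 and 3.49 CPM in WT 1 to WT 4. The groups did not overlap, which held for 0.829% of all genes in this direction, but the gap between HO 4 and WT 2 was narrow. Of the 10 genes, 0 had every HO library below every WT library, which held for 0.974% of all genes. These values rest on 269 to 565 reads in HO and 144 to 367 reads in WT, so that counting error alone is between 4.21% and 8.33% of a library's value. The fold change was 2.02 (log2 1.01, 95% interval 0.44 to 1.59), with an unadjusted edgeR p of 0.00269, which ranked 42 among 16522 genes. Enumerating all 126 labellings of the libraries gave a two-sided exact permutation p of 0.00794 for its log2 CPM, which is the smallest p that these labellings allow. They treat all libraries as exchangeable and take no account of the sets.

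Whether Fgf10 passed a test across all genes depended on the tool and its settings. The edgeR adjusted p was 0.896. DESeq2 gave an adjusted p of 0.0534 when its filter on low means was tuned to the threshold of 0.05 and 0.0486 when it was tuned to 0.1, the default. With the replicate number of the labels as a block, DESeq2 called Fgf10 (log2 fold change 1.10, adjusted p = 0.000854) and edgeR did not (1.10, adjusted p = 0.687). Of the 9 DESeq2 fits that each leave out 1 library, those without WT 2 (adjusted p = 0.000218) and without HO 4 (0.0411) called Fgf10. These are the WT library with the highest and the HO library with the lowest level, and in the other 7 fits its adjusted p was between 0.108 and 0.216.

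The direction of Fgf10 was the same within both sets. Its log2 fold change was 0.86 (SE 0.36) within set A and 1.30 (SE 0.30) within set B, with edgeR adjusted p of 0.704 and 0.361, and the test of the difference between sets gave an interaction of 0.46 (SE 0.51, edgeR adjusted p = 0.867). Without HO 2, the library with neural transcripts, it was 0.94 (SE 0.27, edgeR adjusted p = 0.868).

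Fgf10 is also a ligand of lung mesenchyme, and markers of neighbouring cell types were set beside it. The 6 lung mesenchyme markers summed to 27.7 to 50.6 CPM in HO and 19.2 to 58.3 CPM in WT, so the groups overlapped. Of these 6, 4 were higher in HO, and 0 had an unadjusted edgeR p under 0.05. The foregut and lung epithelium genes Shh and Sftpc had 0 reads in all 9 libraries, and the 9 markers of that list summed to 1.91 to 13.2 CPM in HO and 1.53 to 7.20 CPM in WT. Some other lists had more members with a low p. All 6 smooth muscle markers were lower in HO, 4 of them with an unadjusted edgeR p under 0.05, and they summed to 2421 to 3720 CPM in HO and 3705 to 4072 CPM in WT. Of the 7 epicardium markers 6 were lower, 3 of them with an unadjusted p under 0.05, and they summed to 421 to 753 CPM in HO and 691 to 1087 CPM in WT. All 7 cushion mesenchyme markers were higher, 1 of them with an unadjusted p under 0.05, and they summed to 1368 to 2024 CPM in HO and 673 to 2142 CPM in WT. Of the 6 outflow tract myocardium markers tested, 3 were higher and 3 lower, 3 had an unadjusted p under 0.05, and the list summed to 789 to 1214 CPM in HO and 914 to 1150 CPM in WT. Of the 11 neuron and Schwann cell markers tested, 10 were higher, 4 with an unadjusted p under 0.05, with HO 2 far above the rest as given above. Of the 9 second heart field and pharyngeal mesoderm markers tested, 4 were higher, and 2 had an unadjusted p under 0.05. These were Isl1, higher in HO, and Tbx1, lower in HO. Isl1 is also in the outflow tract myocardium list and is counted in both. That list summed to 177 to 286 CPM in HO and 198 to 324 CPM in WT. All 8 heart muscle markers were lower, 0 of them with an unadjusted p under 0.05. They summed to 11343.9 to 15395.5 CPM in HO and 7924.84 to 19012.2 CPM in WT. Of the 6 endothelium markers 5 were higher, 0 of the 6 with an unadjusted p under 0.05. That list summed to 641 to 774 CPM in HO and 558 to 676 CPM in WT. The part of these cell types in the Fgf10 and Dusp6 differences was not tested. In bulk tissue a change in the number of cells that express a gene and a change in its RNA per cell cannot be told apart.

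Fgf8, the other second heart field ligand gene, was at the edge of detection. It had 15, 2, 15, 11 and 1 reads in HO 1 to HO 5, against 5, 12, 3 and 8 reads in WT 1 to WT 4. The HO range enclosed the WT range, and the 15 reads of HO 1 alone carry a 95% Poisson interval of 8.40 to 24.7 reads, which covers counting error only. Its log2 fold change of 0.41 has a 95% interval from -1.24 to 2.07 (edgeR adjusted p = 0.960), which leaves room for a difference of either sign.

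The fold changes of the receptor genes had opposite signs. Fgfr2, of which not every splice form receives Fgf10, had 151, 100, 102, 112 and 137 CPM in HO 1 to HO 5, against 72.2, 39.0, 105 and 108 CPM in WT 1 to WT 4. The 2 low values belong to WT 1 and WT 2, which share set A. The log2 fold change was 0.57 (SE 0.27, edgeR adjusted p = 0.896), and the exact two-sided permutation p was 0.0714. It lay between 0.34 (without WT 2) and 0.75 (without WT 4) in the edgeR fits that each leave out 1 library, with an unadjusted p between 0.0268 (without WT 4) and 0.125 (without WT 1), and it was 0.61 with the replicate block. Within set A it was 1.19 (SE 0.36), and within set B it was 0.0064 (SE 0.082). Counts per gene symbol do not separate the splice forms.

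Fgfr1, the receptor gene of broad mesenchymal and heart progenitor expression, had 98.7, 110, 106, 138 and 86.0 CPM in HO 1 to HO 5, against 152, 127, 110 and 94.8 CPM in WT 1 to WT 4. The groups overlapped, with a log2 fold change of -0.16 (95% interval -0.52 to 0.19, edgeR adjusted p = 0.939). It was -0.40 (SE 0.17) within set A and 0.25 (SE 0.13) within set B. The interaction of genotype with set was 0.67 (SE 0.23) for Fgfr1 and -1.17 (SE 0.40) for Fgfr2, with unadjusted edgeR p of 0.0173 and 0.0193 and adjusted p of 0.501 and 0.503. Among all genes 8.15% had an unadjusted p under 0.05 in that test, and edgeR called 2 of 16303 (0.0123%), neither of them an FGF gene of this set.

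**Figure D2:**
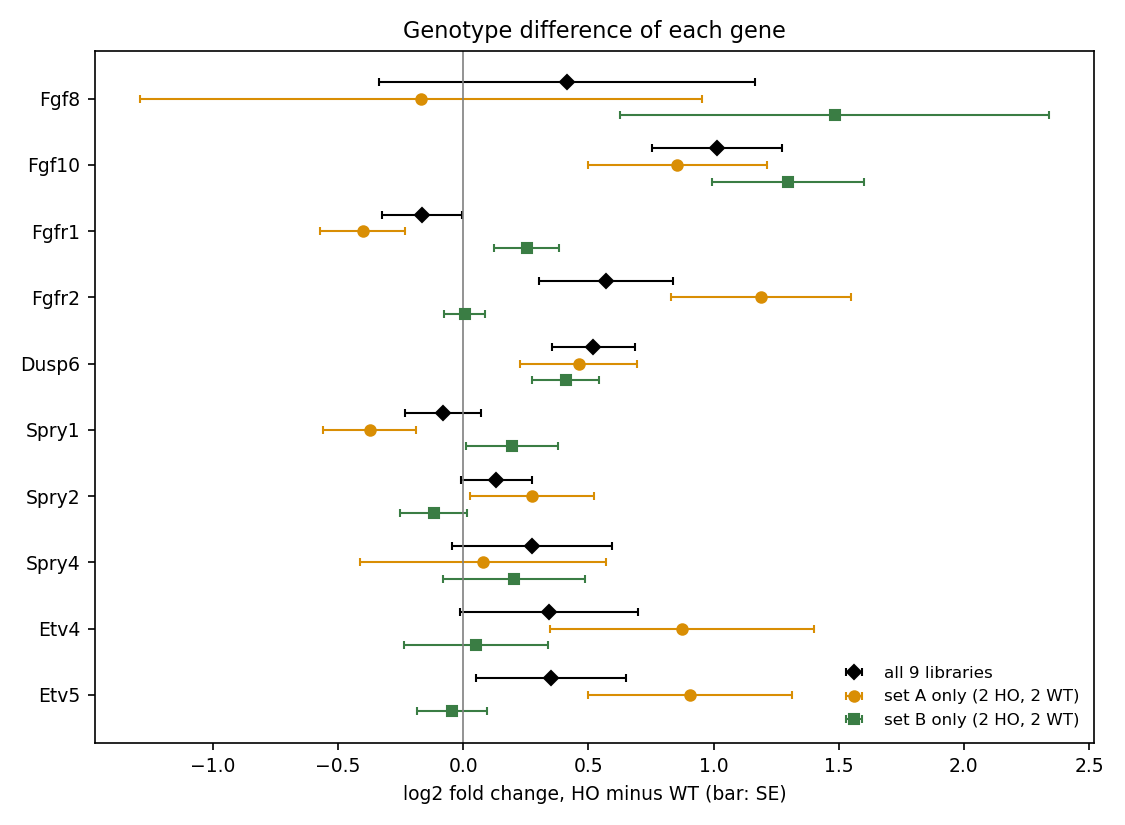
Log2 fold change of HO against WT with its SE for each FGF gene, over all 9 libraries (black), within set A (orange) and within set B (green). Fgf10, Fgfr2, Dusp6, Spry4 and Etv4 lie above 0 in all 3 fits, with Fgfr2 at 0.0064 in set B, while Fgfr1, Spry1, Spry2, Etv5 and Fgf8 have opposite signs within the 2 sets.

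Of the feedback inhibitor genes, Dusp6, which encodes a phosphatase that removes the activating phosphates of ERK, was about 1.4-fold higher in HO. It had 46.0, 61.6, 61.3, 63.0 and 77.7 CPM in HO 1 to HO 5, against 33.5, 45.6, 52.9 and 40.7 CPM in WT 1 to WT 4. The groups overlapped through HO 1 alone, which lay above 3 of the 4 WT libraries and below WT 3. The fold change was 1.43 (log2 0.52, 95% interval 0.16 to 0.89), with an edgeR unadjusted p of 0.00961 and adjusted p of 0.896, and the DESeq2 adjusted p was 0.317. The exact two-sided permutation p was 0.0238.

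Within each set both HO libraries lay above both WT libraries for Dusp6, as they did for Fgf10. In set A this rests on HO 1 at 46.0 CPM against WT 2 at 45.6 CPM, a gap within counting error (2.09% in HO 1 and 2.33% in WT 2). No other FGF gene of the 10 showed this, and 3.63% of all genes tested did. The log2 fold change of Dusp6 was 0.46 (SE 0.23) within set A and 0.41 (SE 0.13) within set B. It lay between 0.42 and 0.64 in the edgeR fits that each leave out 1 library, none of which called it. The DESeq2 fits of that kind gave an adjusted p between 0.0888 and 0.764. With the replicate block it was 0.43 in edgeR (adjusted p = 0.860) and 0.44 in DESeq2 (adjusted p = 0.0628).

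The Sprouty genes, which encode intracellular inhibitors of receptor tyrosine kinase signalling, had overlapping ranges throughout. Spry4 had 7.85, 21.3, 15.8, 25.3 and 25.9 CPM in HO 1 to HO 5, against 12.1, 15.7, 22.1 and 13.5 CPM in WT 1 to WT 4, and HO 1 was the lowest of all libraries. Its log2 fold change was 0.27 (95% interval -0.43 to 0.98). It was 0.47 without HO 1, 0.48 without WT 3 and 0.14 without HO 5. Spry2 ranged from 22.2 to 32.6 CPM in HO and from 22.2 to 26.6 CPM in WT, at 0.13 (95% interval -0.18 to 0.45). Spry1 ranged from 28.3 to 45.1 CPM in HO and from 29.7 to 42.1 CPM in WT, at -0.08 (95% interval -0.42 to 0.25). The edgeR adjusted p was between 0.944 and 0.960 for these 3 genes, and the intervals leave room for differences of either sign.

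Etv4 and Etv5 encode ETS factors that are induced by ERK signalling and carry FGF responses to the genome. Etv5 had 26.6, 62.0, 48.6, 48.3 and 49.9 CPM in HO 1 to HO 5, against 22.4, 25.4, 57.1 and 42.7 CPM in WT 1 to WT 4. The 3 low values all belong to set A, and HO 2 of the same set was the highest. Etv4 was low in the same 3 libraries, with 3.66, 6.67, 6.60, 5.99 and 5.42 CPM in HO 1 to HO 5, against 1.97, 3.73, 7.56 and 4.60 CPM in WT 1 to WT 4. Their log2 fold changes were 0.35 (SE 0.30) for Etv5 and 0.34 (SE 0.35) for Etv4, with edgeR adjusted p of 0.934 and 0.940. Single libraries moved both. Etv5 was at 0.17 without WT 1 and 0.65 without WT 3 (edgeR unadjusted p = 0.0483), and Etv4 at 0.098 without WT 1 and 0.73 without WT 3.

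For both ETS genes the sizes differed between sets, but no interaction passed. Etv5 was at 0.91 (SE 0.41) within set A and at -0.044 (SE 0.14) within set B, with an interaction of -0.93 (SE 0.48, edgeR adjusted p = 0.688). Etv4 was at 0.87 (SE 0.53) within set A and at 0.05 (SE 0.29) within set B. With genotype held constant, set B stood above set A by 0.60 for Etv5 (SE 0.28) and 0.69 for Etv4 (SE 0.33) on the log2 scale, with edgeR adjusted p of 0.217 and 0.219, in a comparison that called 9.65% of all genes and 0 of the 10.

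Levels can be compared between genes only per length, here as CPM per kilobase of annotated exon. Dusp6 had the highest group means of the 10 on this scale, at 19.8 ± 3.58 in HO (SD, n = 5) and 13.8 ± 2.61 in WT (SD, n = 4). Its WT range overlapped that of Spry1 (12.4 ± 1.76), and in WT 1 it lay below Fgfr1, Spry1 and Spry2. Spry2, Spry1, Fgfr2, Etv5 and Fgfr1 followed in HO between 12.6 and 10.9 with ranges that overlapped one another. Spry4 came next, at 4.04 ± 1.58 in HO and 3.34 ± 0.932 in WT. Fgf10 averaged 2.62 ± 0.424 in HO and 1.30 ± 0.508 in WT. It stood above Etv4 in HO (1.83 ± 0.396) and beside it in WT (1.44 ± 0.751). Fgf8 was lowest in every library, at 0.179 ± 0.135 in HO and 0.133 ± 0.0668 in WT. The place of the receptors rests on the length used. Over the longest transcript in place of all exons, Fgfr2 averaged 27.2 in HO and 18.3 in WT, and Fgfr1 averaged 21.4 in HO and 23.9 in WT, beside 22.1 in HO and 15.4 in WT for Dusp6.

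**Figure D3:**
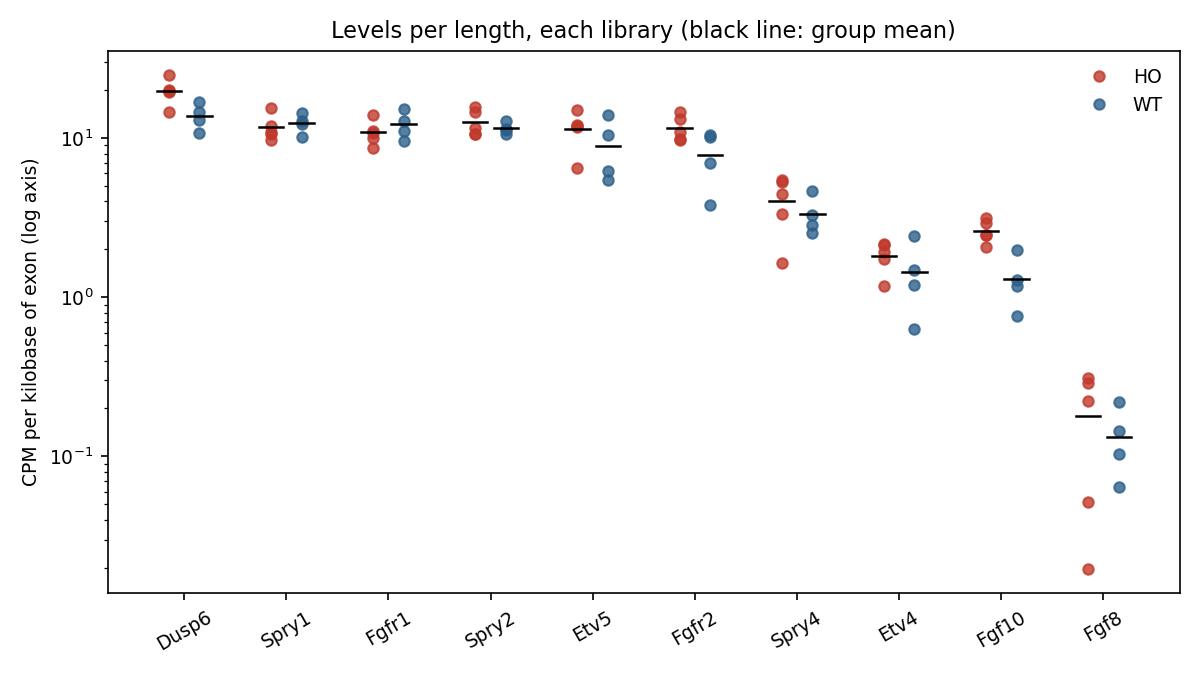
CPM per kilobase of exon of each FGF gene on a log axis, with 1 point per library, HO in red left of WT in blue, and the group mean as a black line; genes are ordered by their WT mean. Fgf8 lies below every other gene in all 9 libraries, and Fgf10 lies near Etv4.

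Variation among libraries of the same genotype was described by correlating deviations from the group means of log2 CPM over the 9 libraries, with no test, since libraries of a set are not independent and neither set alone holds enough of them. The highest values were among the feedback and ETS genes. The Pearson r was 0.91 for Etv4 with Etv5 (Spearman's rho 0.90, and r 0.92 without the 2 libraries farthest from the median of Etv4). It was 0.88 for Dusp6 with Spry4 (rho 0.92, and 0.73 without the 2 farthest). For Dusp6 with Etv4 it was 0.76 (rho 0.40), and 0.28 without the 2 farthest libraries, and for Dusp6 with Etv5 it was 0.73 (rho 0.53), and 0.21 without the 2 farthest, so both relations rest on those. For Fgf10 the r was 0.19 with Dusp6, 0.08 with Spry4, 0.025 with Etv4 and -0.17 with Etv5, and without the 2 farthest libraries it was 0.34 with Etv4 and 0.39 with Etv5. With Fgfr2 it was -0.78, and -0.26 without the 2 farthest libraries. For Spry1 with Fgfr1 the r was 0.73, and 0.17 without the 2 farthest, so that relation too rests on few libraries. The lowest r was -0.91, for Fgf8 with Spry2 (-0.87 without the 2 farthest), where Fgf8 rests on at most 15 reads a library.

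**Figure D4:**
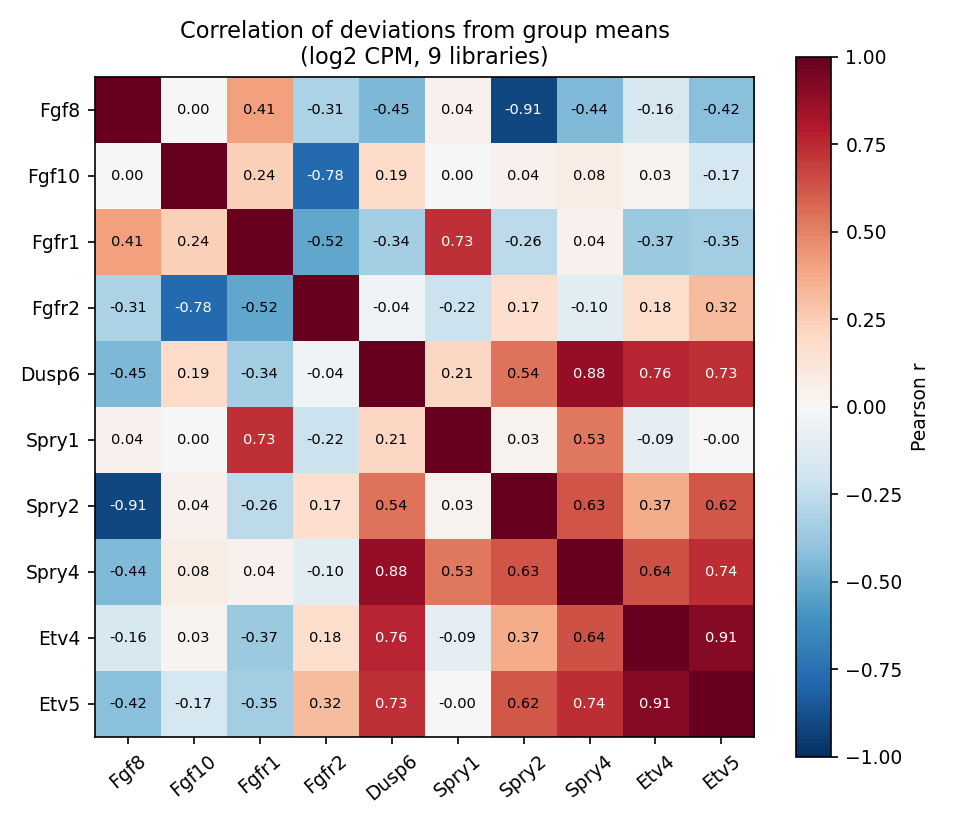
Pearson r between FGF genes of the deviations of log2 CPM from group means over 9 libraries, from blue (-1) to red (1). Over all 9 libraries the r lies between 0.64 and 0.91 among Dusp6, Spry4, Etv4 and Etv5. Those of Dusp6 with Etv4 and Etv5 are 0.28 and 0.21 without the 2 farthest libraries.

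The genes most like Fgf10 over the 9 libraries were found among 13923 genes of at least 1 CPM on average by the Pearson r of log2 CPM, genotype included. They were Btbd3 (0.93), Arpc3 (0.91), Dynlt1b (0.89), Fez2 (0.89) and Zfp865 (0.88), with log2 fold changes between 0.10 and 0.55. Most like Dusp6 were Usp6nl (0.93), Chac1 (0.91), the pseudogene Tsg101-ps (0.90), Nkain1 (0.90) and Gm6467 (0.90). Of the 13923 genes, 2 had an r above 0.9 with Fgf10 and 6 with Dusp6. Among so many genes and only 9 libraries some r this high can arise by chance. Whether these genes are related to Fgf10 or Dusp6 was not tested.

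Other genes of the pathway were counted in 6 lists with 98 genes outside the 10, of which 88 were tested. Over all 6 lists, 2 had an unadjusted edgeR p under 0.05 and were higher in HO, 5 were lower, and 0 passed after adjustment over all genes. Among all genes 2.32% were higher and 2.94% lower at that threshold, and 50.6% had a log2 fold change above 0, against 49 of these 88. Of the other ligand genes, 12 of 20 were tested, with 7 above 0 and a median of 0.09, and 0 had an unadjusted p under 0.05. Fgf7, a ligand of the same subfamily as Fgf10, had at most 39 reads in a library and was not tested. Of other receptors and co-receptors, 13 of 14 were tested, with 5 above 0 and a median of -0.07, and 0 had an unadjusted p under 0.05.

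Of 20 signal transducers, all tested, 14 were above 0 with a median of 0.06. Of these, 1 had an unadjusted edgeR p under 0.05, and 0 passed after adjustment. Of the 22 other feedback and ETS target genes, all tested, 15 were above 0 with a median of 0.12, and 0 had an unadjusted p under 0.05; their log2 fold changes lay between -0.49 and 0.77.

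Heparan sulphate on the cell surface presents FGF ligands to their receptors. Of 9 genes of its synthesis and trimming, 3 were above 0, and 2 had an unadjusted p under 0.05 and were lower in HO, both of them sulphatase genes whose products remove sulphate groups from the chains. Sulf2 had 372, 315, 375, 424 and 280 CPM in HO 1 to HO 5, against 582, 524, 387 and 402 CPM in WT 1 to WT 4, a log2 fold change of -0.42 (SE 0.16, edgeR adjusted p = 0.896). Sulf1 had 435, 328, 305, 399 and 208 CPM in HO 1 to HO 5, against 813, 680, 318 and 339 CPM in WT 1 to WT 4, a log2 fold change of -0.68 (SE 0.31, edgeR adjusted p = 0.896). For both genes the highest values were those of WT 1 and WT 2, which share set A.

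Regulators that act on Fgf8 or Fgf10 in pharyngeal and heart progenitors did not move one way, with 5 of 12 tested above 0 and a median of -0.04. At an unadjusted p under 0.05, 1 was higher (Isl1) and 3 were lower, Tbx1 and Nkx2-5 itself among them. Isl1, a LIM homeodomain activator of Fgf10, ranged from 42.9 to 142 CPM in HO and from 28.8 to 42.9 CPM in WT. Its top value was in HO 2, the library with neural transcripts, and the next HO library had 59.7 CPM. Tbx1, a T-box activator of both ligand genes, ranged from 1.57 to 3.83 CPM in HO and from 2.88 to 7.65 CPM in WT, with its highest values in WT 1 and WT 2. Their edgeR adjusted p was 0.896.

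**Figure D5:**
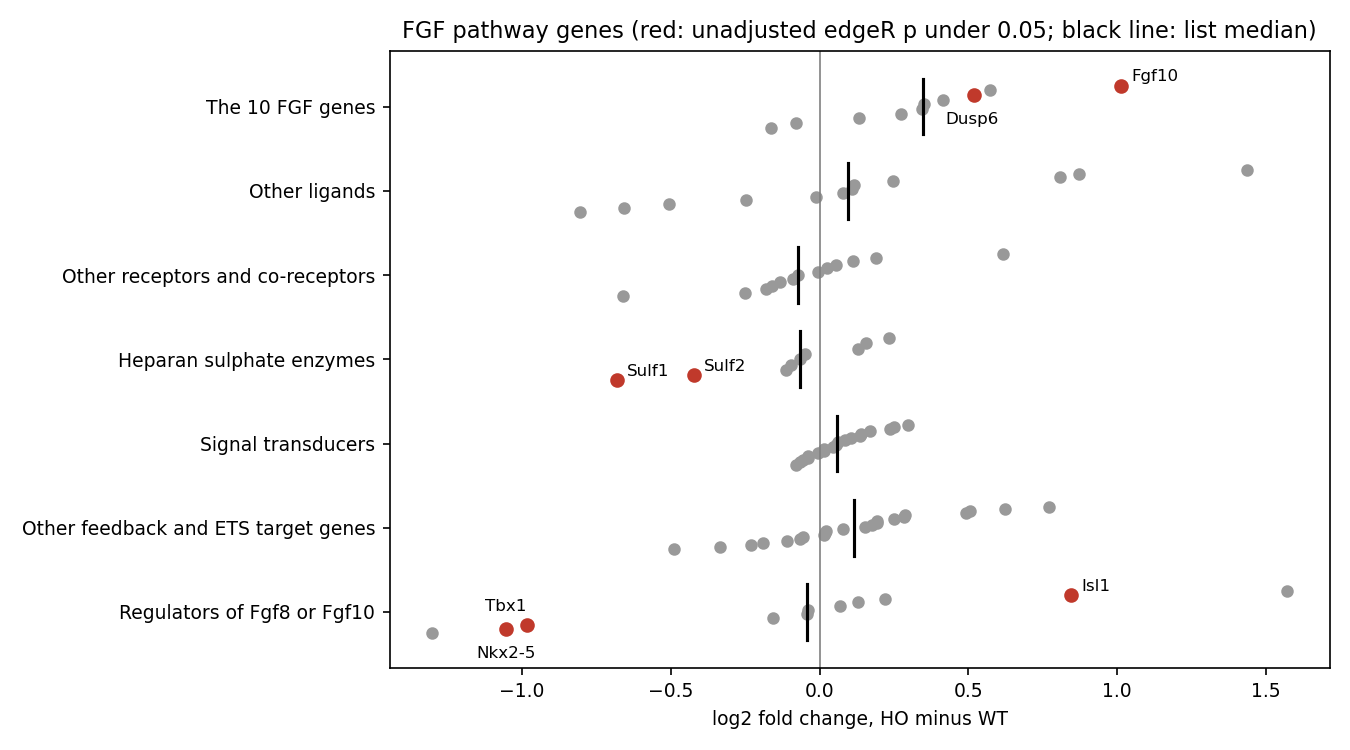
Log2 fold change of HO against WT for the 10 FGF genes and the genes of 6 pathway lists that were tested, with the median of each full list as a black line and genes of unadjusted edgeR p under 0.05 in red. The points of 2 list genes are left out. The 10 FGF genes have a median of 0.35, and the medians of the other lists lie between -0.07 and 0.12.

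Genes are placed by GENCODE M21 on mm10. Fgf10 lies on the plus strand of chr13:118669791-118792115, Dusp6 on the plus strand of chr10:99263231-99267489 and Fgfr2 on the minus strand within chr7:130162451-133123350, and all 10 are protein coding. That annotated span of Fgfr2 also covers other genes, among them Tacc2 on the opposite strand and Ate1 on the same strand. The RefSeq start of its promoter lies inside the span, and its exon length used above comes from this model. Exons of Fgfr2 share 0 bases with genes of the opposite strand, and overlap with genes of its own strand was not measured. Exons of Fgf10 share 123 bases with the antisense gene Gm16263, which had at most 1 read in any library. The RefSeq start used for the Fgf10 promoter lies inside that gene, downstream of its first GENCODE base. Those of Fgfr1 share 164 bases with Gm16159 (at most 2 reads) and those of Spry1 share 710 bases with Gm42922 (between 1 and 21 reads). No source used here gives the strand setting of the counting, so reads of such partners cannot be told apart.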

How the data were processed

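Total RNA of dissected outflow tracts was purified on RNeasy columns and made into low-input SMART-Seq libraries, per the labels' protocols. The authors deposited read counts per gene symbol as whole numbers. STAR 2.5.0c, Picard, HTSeq 0.6.0, DESeq2 and mm10 are named in the submitters' processing notes, with no roles, and no source used here gives the annotation or strand setting. Of reads, 20.6% to 23.5% stood in 5 rows with no gene name, which were left out. Groups come from the sample titles and sets A and B from a number in the deposited library names. All 10 members and all lists were chosen with earlier results of these data known.

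The main test was the quasi-likelihood test of edgeR 4.0.16 (R 4.3.3) with genotype as the only term, TMM factors, robust dispersions, filterByExpr at a minimum count of 10 and a two-sided Benjamini-Hochberg threshold of 0.05. An SE is the log2 fold change over the square root of F, and intervals use the t distribution. For log2 CPM the prior count was 2. The alternatives were DESeq2 1.42.0, limma-voom with sample quality weights (limma 3.58.1), other factors and filters, set as a term, fits within sets, the replicate block and leaving out each library. DESeq2 fits other than the plain one, the comparison of set B with set A, and reading HO 5 as set B in the interaction were added after the data were seen. The text names the 10 genes, Nkx2-5, list genes with an unadjusted p under 0.05 and the 5 genes most like Fgf10 and most like Dusp6. The values of 2 such list genes are not reported here, though list counts and medians include them. Fgf7, Shh, Sftpc and Tdgf1 were singled out after their values were seen. The procedure was tested on simulated counts. Every pair of libraries differed by more than sampling noise (lowest chi-square per degree of freedom 15.9). Nothing says that libraries are separate embryos, so a p-value reflects the spread between these libraries, part of which may be technical.

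Replicate numbers come from the sample titles. For numbers 1 to 4, deviations of the paired libraries from their group means had correlations of 0.242, 0.137, 0.227 and 0.176 over all genes tested, which meets the criterion for pairing (above 0.1 in every pair). The main test and the permutation test do not use the pairing, and fits with the replicate block are given where they change a call or a count. Numbers 1 and 2 fall in set A and 3 and 4 in set B, so a shared set may contribute to these correlations. Of these 8 libraries, 5 correlated best with the library of the same number in the other group. What pairing holds beyond set was not tested, and HO 5 has no partner.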

Additional observations from a re-analysis of the deposited data

Results flagged for a closer look

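Of 54 sets of values looked at (each gene or marker sum described above, in HO and in WT), 3 held a library far from the rest of its group, where chance gives about 1 in 20. HO 2 had the highest Isl1, at 142 CPM, with the next HO library at 59.7 CPM. HO 2 also had the highest sum of neuron and Schwann cell markers, at 2960 CPM, with the next HO library at 110 CPM. WT 1 had the highest sum of foregut and lung epithelium markers, at 7.20 CPM, with the next WT library at 2.27 CPM. None of the 10 FGF genes met this criterion in either group, and for none of them did all libraries of set A move against all of set B.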

How the results depend on the processing

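Fgf10 stayed above 0 in all 33 alternative fits run, between 0.83 and 1.30, and Dusp6 between 0.41 and 0.64. Fgf10 passed only in some DESeq2 fits, so 1 FGF gene was called with the replicate block, with set as a term, with HO 5 also read as set B and with filtering tuned to 0.1, and between 0 and 1 when a library was left out. Over all genes, against 0 by edgeR, 38 were called by DESeq2, 4 by limma-voom, 6 within set B, 40 by DESeq2 with filtering tuned to 0.1, 69 with the replicate block in DESeq2, 98 with set as a term in DESeq2 and 121 with HO 5 also read as set B in DESeq2. Leaving out a library gave between 0 (edgeR) and 65 (DESeq2). In edgeR itself the replicate block, set as a term, and HO 5 also read as set B each called 0 genes. Pathway genes outside the 10 with an unadjusted p under 0.05 numbered 7, against 12 by DESeq2 at either filtering, 4 with the replicate block in edgeR and 11 in DESeq2, 14 within set A, 11 by DESeq2 with HO 5 read as set B, and between 2 and 15 with a library left out. Signs turned for Spry1 (0.0053 by voom, 0.20 within set B, 0.00018 by edgeR and 0.0045 by DESeq2 without WT 1, in a leave-out range from -0.19), Fgf8 (-0.17 within set A), Fgfr1 (0.25), Spry2 (-0.12) and Etv5 (-0.044) within set B, and the interaction of Dusp6 (0.085 with HO 5 read as set B, against -0.032). The causes were not tested. Fgf8 had at most 15 reads a library, and the stricter filter on counts left it without a value.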
